A study of Mus musculus with 10 samples.

Results

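The double knockout (DKO) of AMPKα and Gys1 was compared with naïve mouse embryonic stem cells (ESCs) of the J1 line. The comparison takes the 2 libraries labelled J1-DKO and the 2 labelled J1-WT, 4 of the 10 libraries of the study, and describes the genes and pathways that differed. The study asked how glycogen and AMPK act on the exit from naïve pluripotency and sequenced RNA from J1, from J1 without AMPK (AKO), without Gys1 (GKO) or without both (DKO), and from primed ESCs (PJ1). Each line has 2 libraries, whose clones or cultures are not given in the sources used here, so that p-values measure the spread between libraries that may be technical. J1 is labelled WT, DKO "AMPK, GYS1 KO", AKO "AMPK KO" and GKO "GYS1 KO". The labels give 1 medium for the J1 lines, on gelatin with serum, LIF, the MEK inhibitor PD0325901 and the GSK3 inhibitor CHIR99021, and PJ1 was grown on Matrigel in serum replacement with bFGF and Activin. Gys1 was disrupted by a Cas9 indel in a coding exon, and Prkaa1 in J1 by commercial CRISPR and repair plasmids followed by a sort for RFP, with pooled clones checked. No editing of Prkaa2, which encodes the other α subunit, is described in the sources used here.

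Values are TPM, which express each gene as its share of the transcripts of a library, as the authors deposited them for 21853 genes. TPM keeps no depth, so the number of reads behind a value is unknown. Tests were run on log2(TPM + 1), where changes of low genes appear smaller than they are, over the 12060 genes that reached 1 TPM in 2 or more of the 10 libraries. Fold changes below are log2 values on this scale, DKO minus naïve unless stated. A gene is called, and is said to have risen or fallen, at an adjusted p under 0.05 from limma with Benjamini-Hochberg adjustment over all genes tested. For a single gene, 2 libraries against 2 allow no two-sided exact p below 0.333, and the calls depend on the estimate of spread that limma pools over genes and lines.

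AMPK is a kinase that is switched on when cellular energy falls. It holds back the synthesis of fatty acids and sterols through acetyl-CoA carboxylase and HMG-CoA reductase and favours fatty acid oxidation and autophagy. Gys1 encodes the glycogen synthase of most tissues outside the liver, and its product, glycogen, can bind the β subunit of AMPK. Naïve ESCs stand for the pre-implantation epiblast and are held in that state by LIF with inhibition of MEK and GSK3.

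Prkaa1, which encodes the catalytic subunit AMPKα1 and lies at chr15:5173186-5211750 (GRCm39), was at 15.5 and 16.6 TPM in the naïve libraries and 2.30 and 2.04 TPM in DKO. It was at 7.24 and 6.94 TPM in AKO and at 12.2 and 11.96 TPM in GKO. Every DKO library was thus below every other library kept in naïve medium, and the AKO libraries lay between DKO and naïve ESCs. Prkaa1 fell by 2.43 (SE 0.068, adjusted p = 1.90e-07) and was also lower in DKO than in AKO (-1.35, adjusted p = 3.39e-06). Prkaa2 was at 2.38 and 2.41 TPM in the naïve libraries and 3.29 and 3.10 TPM in DKO, with 2.71 and 2.44 TPM in AKO and 3.27 and 3.29 TPM in GKO, and it rose by 0.30 (adjusted p = 0.0136), a call lost in 4 of 13 alternative settings. Gys1, at chr7:45084175-45106058, was at 11.5 and 10.8 TPM in the naïve libraries and 12.1 and 11.7 TPM in DKO, with 12.7 and 12.2 TPM in AKO and 9.70 and 9.98 TPM in GKO, and did not pass the test (0.094, adjusted p = 0.232). A small indel need not change the level of its mRNA, so the Gys1 values do not test that label. Among the other subunits, Prkab2, which encodes the β2 subunit, was at 5.54 and 5.62 TPM in the naïve libraries and 7.79 and 7.82 TPM in DKO and rose by 0.42 (adjusted p = 0.00491), while Prkag1, which encodes the γ1 subunit, fell by 0.24 (adjusted p = 0.00631). Prkag1 lies on chromosome 15, whose genes shifted as a group, and lost its call when each library was centred per chromosome and without naïve replicate 2. Camkk2, which encodes a calcium-dependent kinase that activates AMPK, went from 16.6 and 18.9 to 10.7 and 10.7 TPM (log2 fold change -0.68, SE 0.072, adjusted p = 0.000129), and Stk11, which encodes the upstream kinase LKB1, fell by 0.25. Over the list of the AMPK complex and its upstream kinases, 4 of 17 tested genes were higher and 6 lower (median -0.049), beside 21.7% higher and 24.3% lower of all genes. The higher count was 2 without DKO replicate 1 and without either naïve library, and the median -0.079 without DKO replicate 1 and -0.11 over genes with a mean of at least 5 TPM.

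Markers of pluripotency were abundant in both lines. Pou5f1 was at 833 and 819 TPM in the naïve libraries and 776 and 838 TPM in DKO, and Zfp42, a naïve marker known as Rex1, at 474 and 458 TPM in the naïve libraries and 436 and 450.1 TPM in DKO, against 0.0240 and 0.196 TPM in PJ1. Their ranges in DKO and naïve ESCs overlapped for Pou5f1 only, and neither was called (-0.035 and -0.072). The sign of the Pou5f1 difference turned under quantile normalization and without the first DKO library.

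DKO differed from naïve ESCs in the genes of the Y chromosome. J1 is a line of male origin, yet Eif2s3y, Ddx3y and Uty were listed at 0 in both naïve, both AKO and both primed libraries. Eif2s3y, which encodes a translation factor subunit, was at 37.3 and 37.4 TPM in the DKO libraries and at 41.5 and 38.0 TPM in those of GKO. Ddx3y, an RNA helicase gene, was at 22.9 and 20.9 TPM and 8.11 and 7.83 TPM, and Uty, a demethylase gene, at 7.05 and 6.24 TPM and 2.36 and 2.35 TPM in the same order. The cells sequenced as naïve ESCs and as DKO were therefore unlike in more than the edited genes, and the genotype and this difference cannot be told apart in this comparison. Whole chromosomes also shifted together. The median gene of chromosome 14 was 0.37 higher (269 of 406 genes higher, 10 lower), and those of chromosomes 19 and X were -0.27 and -0.26 (231 of 408 and 239 of 446 genes lower). Of all genes with a chromosome, 21.7% were higher and 24.3% lower. Chromosome 15 was at -0.16 and chromosome 12 at 0.14, against -0.0084 over all genes with a chromosome. With no filter on low values the medians of chromosomes 14, 19 and X were 0.15, -0.13 and -0.10. In AKO against naïve ESCs, chromosome 12 had a median of 0.16, while chromosomes 14, 19 and X were at -0.0092, -0.0039 and 0.025. The GKO medians of these chromosomes were 0.47, -0.40 and -0.074. All of these values are set against the same naïve libraries.

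With each chromosome cut, after its values were seen, into 8 bins of equal gene number, chromosome 14 was raised along its length (0.30 to 0.42) and chromosomes 19 and X were lowered along theirs (-0.33 to -0.23 and -0.36 to -0.16). Chromosome 12 was split, with its 2 bins nearest the centromere at -0.24 and -0.38 and the other 6 between 0.15 and 0.32. The most distal bin was at 0.35 on chromosome 2 and at -0.36 on chromosome 6. In GKO against naïve ESCs, the bins of chromosome X ranged from -0.49 to 0.45, so its median covers stretches of opposite sign. Genes on chromosomes other than 12, 14, 15, 19, X and Y numbered 9850, of which 42.8% were called. On chromosome 14 the genes with the largest changes were Ephx2, which encodes soluble epoxide hydrolase, at 2.73 and 2.59 TPM in the naïve libraries and 12.7 and 13.2 TPM in DKO (1.93), and Trim35, at 9.75 and 9.69 TPM in the naïve libraries and 37.3 and 40.2 TPM in DKO (1.89). They lie 172.4 kb apart.

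**Figure D1:**
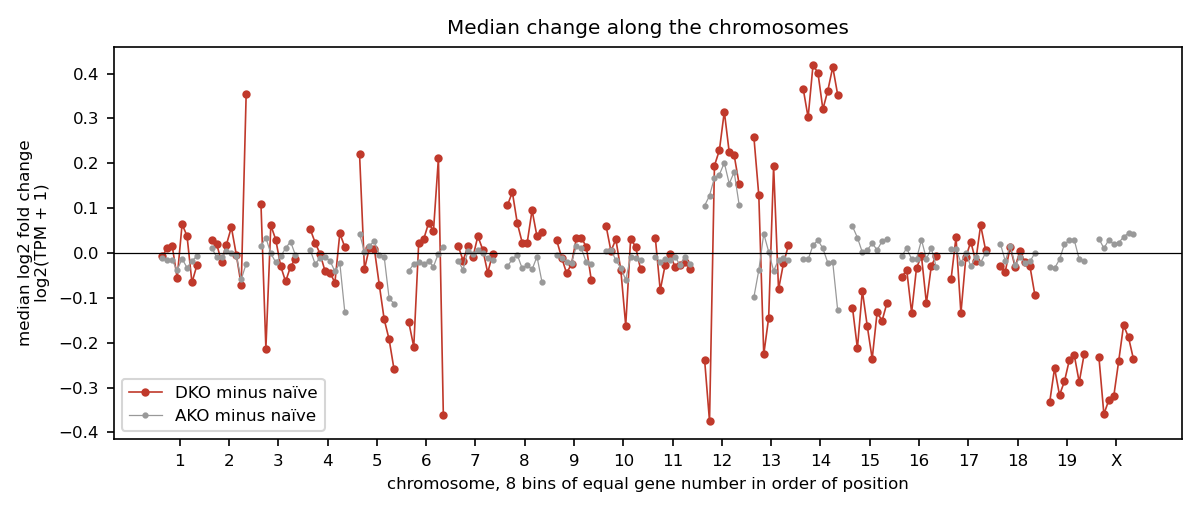
Median log2 fold change on the log2(TPM + 1) scale (y axis) of genes in 8 bins of equal gene number along each chromosome (x axis), for DKO minus naïve ESCs (red) and AKO minus naïve ESCs (grey), 2 libraries per line. All 8 bins of chromosome 14 lie above 0 in DKO, between 0.30 and 0.42, and all 8 bins of chromosomes 19 and X lie below 0.

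In all, 5544 of the 12060 genes were called between DKO and naïve ESCs, which is 46.0%. Of these, 2616 were higher in DKO (21.7%) and 2928 lower (24.3%). Most changes were small. The median absolute log2 fold change was 0.21, beside a median absolute difference between replicates of 0.056 in naïve ESCs and 0.07 in DKO. With a log2 fold change of at least 1 as well, 357 genes remained (2.96%), 225 higher (1.87%) and 132 lower (1.09%). That count was 862 with a pseudocount of 0.1 and 187 over genes with a mean of at least 5 TPM. The median log2 fold change over all genes tested was -0.0083. DKO and naïve libraries did not overlap in 9508 of the 12060 genes (78.8%), so a lack of overlap sets no gene apart by itself. The PJ1 libraries enter the same pooled spread. They had a median absolute difference of 0.13, and 100 genes differed by 1 or more on the log2 scale between them. That number was 10 in naïve ESCs and 18 in DKO.

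Genes with the largest changes were picked among called genes with a mean of at least 5 TPM in the higher line and no overlap of libraries. After the Y-linked genes, the largest rise was in Zbtb10, which encodes a zinc finger protein of the BTB family. It was at 1.99 and 2.41 TPM in the naïve libraries and 17.4 and 15.7 TPM in DKO (log2 fold change 2.45, SE 0.091, adjusted p = 6.46e-07), and GKO lay between them at 5.45 and 6.09 TPM. Rtkn, which encodes a signalling scaffold protein, was at 10.1 and 8.11 TPM in the naïve libraries and 48.0 and 54.4 TPM in DKO (2.38), and Dok1, which encodes an adaptor of tyrosine kinases, at 4.47 and 3.81 TPM in the naïve libraries and 21.9 and 22.0 TPM in DKO (2.16). Rtkn (chr6:83112444-83129561) and Dok1 (chr6:83007915-83010457) lie 102.0 kb apart in GRCm39. Cryab and Hspb2, which encode small heat shock proteins, rose by 2.27 and 2.20, Cryab from 1.25 and 1.73 to 9.53 and 12.5 TPM and Hspb2 from 0.329 and 0.436 to 5.77 and 4.91 TPM. Their annotated spans overlap by 1481 bases on opposite strands, and whether the authors' counting used strand is not given in the sources used here, so their levels are uncertain. Ckmt1, which encodes mitochondrial creatine kinase, rose by 2.25 to 13.03 and 14.4 TPM, and Cald1, which encodes the actin-binding protein caldesmon, by 2.13 to 27.0 and 26.3 TPM. In GKO, Cald1 was at a similar level (26.1 and 25.2 TPM) and Ckmt1 at a higher one (16.5 and 16.6 TPM, DKO minus GKO -0.26, adjusted p = 0.0240).

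The 10 largest falls by the same rule included Prkaa1 and 7 genes of chromosome X, several of them from families best known from germ cells. Fmr1nb was at 31.9 and 30.0 TPM in the naïve libraries and 4.08 and 4.43 TPM in DKO (log2 fold change -2.60, SE 0.07, adjusted p = 1.88e-07), with 24.8 and 23.8 TPM in AKO and 6.500 and 6.96 TPM in GKO. 1700013H16Rik was at 7.26 and 7.85 TPM in the naïve libraries and 0.112 and 0.242 TPM in DKO (-2.86), and Efhc2 at 8.10 and 8.18 TPM in the naïve libraries and 0.787 and 0.737 TPM in DKO (-2.37). In these 3 genes the AKO libraries lay nearer to naïve ESCs and the GKO libraries nearer to DKO. Xlr3a (-2.97), Xlr4a (-2.82), Xlr3b (-2.53) and Magea4 (-2.57) fell from 6.42 to 9.89 TPM in the naïve libraries to under 1 TPM in DKO, and Pramel6 on chromosome 2 from 15.5 and 15.9 to 2.14 and 1.94 TPM. Their families hold near-identical members, which leaves the division of reads among them uncertain. Smoc1, which encodes a secreted calcium-binding protein that modulates BMP signals, fell from 6.71 and 6.91 to 0.661 and 0.454 TPM (log2 fold change -2.33, SE 0.19, adjusted p = 3.66e-05).

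Targets of p53, which act in cell cycle arrest, repair and cell death, were mostly higher in DKO. Of 28 tested genes, 19 were higher (67.9%, against 21.7% of all genes) and 0 were lower, with a median log2 fold change of 0.64. Plk2, a stress-induced polo-like kinase gene, was at 6.86 and 6.30 TPM in the naïve libraries and 24.0 and 28.3 TPM in DKO (log2 fold change 1.84, SE 0.28, adjusted p = 0.000875). Trp53inp1, whose product assists p53 in arrest and autophagy, was at 29.5 and 30.5 TPM in the naïve libraries and 91.8 and 94.0 TPM in DKO (1.60, adjusted p = 1.33e-06). Perp, which encodes a membrane protein that mediates p53-dependent death, was at 4.66 and 3.63 TPM in the naïve libraries and 14.5 and 14.6 TPM in DKO (1.60, adjusted p = 0.000293). In all 3 the DKO libraries stood well above the naïve libraries. Btg2, an antiproliferative gene, rose by 1.59 to 36.8 and 40.5 TPM, and Trp53 itself, the most abundant gene of the list, went from 242 and 235 to 295 and 308 TPM (0.34, adjusted p = 0.00936). Trp53 lost its call without the second naïve or the second DKO library. Cdkn1a, the p53 target that encodes the cell cycle inhibitor p21 and is named here after its values were seen, did not follow, at 78.9 and 86.0 TPM in the naïve libraries and 61.7 and 68.4 TPM in DKO (-0.34, adjusted p = 0.0806). When only the DKO and naïve libraries were fitted and without the primed libraries, 2 genes of the list, Cdkn1a and Plk3, were called lower. Against AKO, 21 genes of the list were higher in DKO and 1 lower (median 0.56), where 22.4% and 23.9% of all genes were. Against GKO, 11 were higher and 3 lower (median 0.18), where 22.4% and 21.2% of all genes were. GKO itself had 17 genes of the list higher and 2 lower than naïve ESCs (median 0.32), beside 24.7% and 27.1% of all genes. Plk2 and Trp53inp1 were higher in DKO than in GKO (1.61 and 0.94, adjusted p = 0.00201 and 2.04e-05), and Perp and Btg2 did not pass that test (adjusted p = 0.103 and 0.109).

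**Figure D2:**
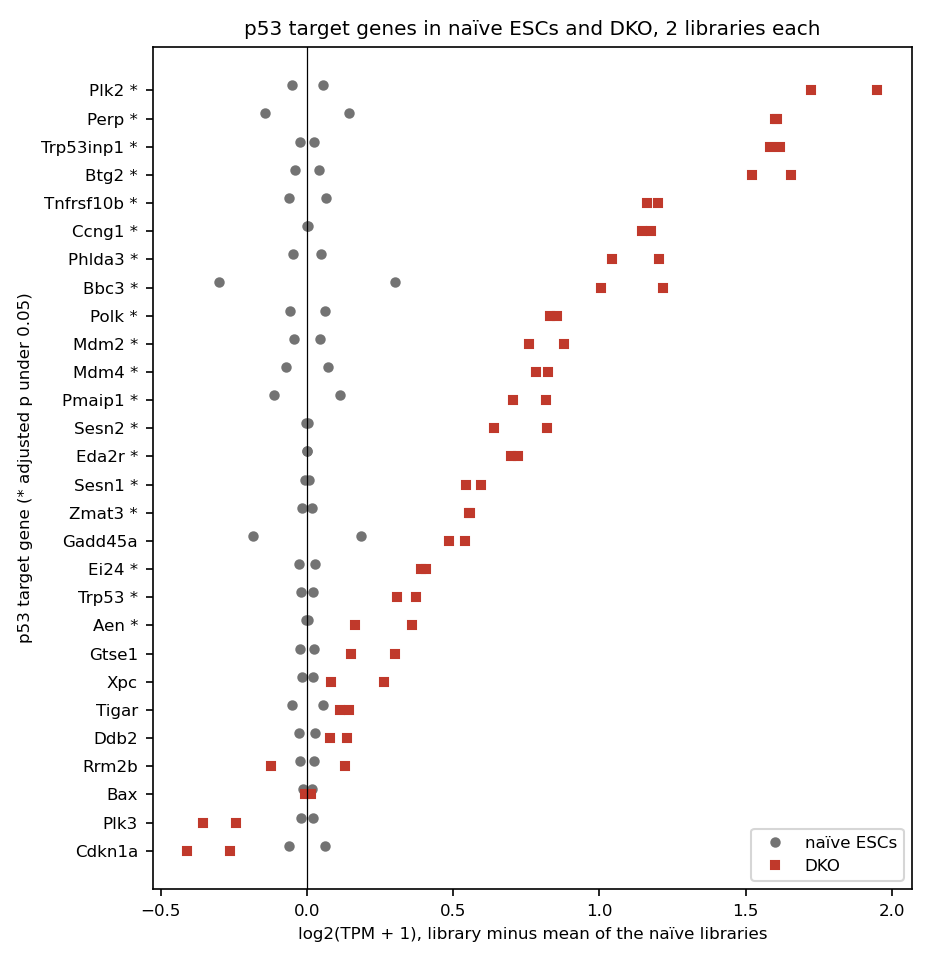
log2(TPM + 1) of each library minus the mean of the 2 naïve libraries (x axis) for the 28 tested p53 targets (y axis), with naïve ESCs as grey circles, DKO as red squares, 2 libraries each, and called genes marked by an asterisk. The DKO libraries of the 19 marked genes lie to the right of both naïve libraries, and those of Cdkn1a and Plk3 to the left.

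p53 binds pairs of a short half-site. RefSeq windows of 250 bases before to 50 after a gene's start (GRCm38.p6) were at hand for 20 of the tested list genes and 9504 of all tested genes. The p53 half-site, searched on both strands, was in the window of 11 list genes (55.0%) and of 8.12% of all genes. Of those 11 genes, 7 rose, beside 19 of 28 in the whole list and 21.7% of all genes. The whole list includes these 11 genes and genes without a window, and whether a match goes with a rise was not tested. A match describes the letters and is no evidence of binding. The match, in capitals, is shown with 20 bases on each side and on the strand of the gene for the 4 largest rises whose match allows it, to give the letters behind the count. These genes were chosen after their values were seen. Ccng1 encodes cyclin G1 (1.16), Mdm2 the ubiquitin ligase of p53 (0.82) and Sesn1 the stress protein sestrin 1 (0.57).
Ccng1, chr11:40755442-40755491, minus strand: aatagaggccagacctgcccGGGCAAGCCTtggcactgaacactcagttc
Mdm2, chr10:117710915-117710964, minus strand: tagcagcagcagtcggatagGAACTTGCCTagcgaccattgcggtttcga
Sesn1, chr10:41887246-41887295, plus strand: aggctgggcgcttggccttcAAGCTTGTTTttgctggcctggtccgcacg
Trp53, chr11:69580264-69580313, plus strand: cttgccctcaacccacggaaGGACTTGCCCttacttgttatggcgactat

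Genes of the germline and meiosis, most of them silenced by methylation or Polycomb in somatic cells, were mostly lower. Of 25 tested, 16 were lower (64.0%, against 24.3% of all genes) and 2 higher, with a median of -0.54. The median was -0.13 with no filter on low values and -0.96 over genes with a mean of at least 5 TPM, where 5 were lower. The list is of low abundance, and its largest falls were in Rhox13 (-1.34), on chromosome X, and Tuba3a, a testis α-tubulin gene at 15.8 and 14.7 TPM in the naïve libraries and 5.65 and 6.33 TPM in DKO (log2 fold change -1.22, SE 0.093, adjusted p = 2.30e-05). Hormad1, which encodes a protein of the meiotic chromosome axis, was at 5.10 and 4.98 TPM in the naïve libraries and 1.86 and 1.77 TPM in DKO (-1.10, adjusted p = 1.42e-05). The libraries of DKO and naïve ESCs did not overlap for either gene, as for 78.8% of all genes tested. Rpl39l and Rpl10l, which encode ribosomal proteins of the male germline, fell to 23.5 and 21.7 TPM from 51.0 and 53.4 (-1.18) and to 70.0 and 74.0 TPM from 147 and 136 (-0.96), both uncertain for their similar copies. Rpl39l was at 1.72 and 2.42 TPM in GKO, below DKO (DKO minus GKO 2.95), while Rpl10l was at 156 and 164 TPM there and lower in DKO than in GKO (-1.14, adjusted p = 5.77e-06). Against GKO directly, 16 genes of the list were lower in DKO and 2 higher, beside 21.2% and 22.4% of all genes. The letters CACGTG, the E-box bound by MAX and its partners, read the same on both strands and stood in 10 of 23 list windows (43.5%) and in 12.1% of all. Of those 10 genes, 8 fell and 0 rose, beside 16 and 2 of the 25 tested. The stretches around CACGTG, in capitals, are shown in the same way for the 4 largest falls with such a match, also chosen after their values were seen. Beside Hormad1 they are Taf7l (-0.78), which encodes a germ cell TFIID subunit, Sycp3 (-0.68), of the synaptonemal complex, and Slc25a31 (-0.59), a testis ADP/ATP carrier gene, and the capitals at the edge of the Sycp3 stretch belong to a further match.
Hormad1, chr3:95559600-95559645, plus strand: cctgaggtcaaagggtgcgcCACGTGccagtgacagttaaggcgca
Taf7l, chrX:134476514-134476559, minus strand: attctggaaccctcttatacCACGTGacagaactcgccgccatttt
Sycp3, chr10:88459524-88459569, plus strand: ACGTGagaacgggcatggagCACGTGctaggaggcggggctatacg
Slc25a31, chr3:40708758-40708803, plus strand: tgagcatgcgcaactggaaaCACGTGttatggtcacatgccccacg

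Lipid genes differed by pathway. Beside 21.7% higher and 24.3% lower among all genes, cholesterol synthesis had 15 of 25 tested genes lower (60.0%), 3 higher and a median of -0.26. Without naïve replicate 2, 9 were lower. Insig1, which encodes the sterol-sensing retention factor of SREBP, was at 56.5 and 54.3 TPM in the naïve libraries and 32.2 and 33.7 TPM in DKO (log2 fold change -0.73, SE 0.05, adjusted p = 1.39e-05), and Fdps, which encodes farnesyl diphosphate synthase and was the most abundant gene of the list in naïve ESCs, at 129 and 125 TPM in the naïve libraries and 79.8 and 83.1 TPM in DKO (-0.64). In both, DKO lay below naïve ESCs, AKO and GKO, which were at 55.0 and 57.2 and 57.2 and 56.1 TPM for Insig1. Ebp (-0.93) and Nsdhl (-0.75), enzymes of the later steps, lie on chromosome X, and Dhcr7, the last reductase, fell by 0.64. Against GKO, 14 genes of the list were lower in DKO and 1 higher, beside 21.2% and 22.4% of all genes. Against AKO, 14 were lower and 3 higher, beside 23.9% and 22.4%. Fatty acid synthesis had 11 of 25 lower and 4 higher (median -0.15), and the lower count was 6 or 7 in each fit without 1 library, with no filter and under quantile normalization. Scd2, which encodes a stearoyl-CoA desaturase, was at 358 and 352 TPM in the naïve libraries and 185 and 182 TPM in DKO (log2 fold change -0.95, SE 0.056, adjusted p = 6.74e-06) and lies on chromosome 19. Me1, which encodes the cytosolic malic enzyme that supplies NADPH, was at 39.0 and 39.2 TPM in the naïve libraries and 19.4 and 19.7 TPM in DKO (-0.97), and Fads2, a desaturase gene on chromosome 19, fell by 0.77. These genes were lowest in DKO among the lines in naïve medium. Acaca, which encodes the acetyl-CoA carboxylase phosphorylated by AMPK, was at 21.8 and 24.2 TPM in the naïve libraries and 20.4 and 18.2 TPM in DKO (-0.24, adjusted p = 0.0440), a call lost in 7 of 14 alternative settings. Fatty acid oxidation had 9 of 25 higher (36.0%, against 21.7% of all genes) and 0 lower (median 0.17). Cpt1c, the brain-type carnitine palmitoyltransferase gene, was at 5.42 and 5.71 TPM in the naïve libraries and 15.4 and 14.9 TPM in DKO (log2 fold change 1.299, SE 0.063, adjusted p = 2.49e-06), and Acad9, which encodes an acyl-CoA dehydrogenase that also assembles complex I, at 17.0 and 16.6 TPM in the naïve libraries and 35.8 and 38.4 TPM in DKO (1.09). Both were higher in DKO than in GKO (0.86 and 0.92). In that comparison 17 genes of the list were higher in DKO and 1 lower, where 22.4% of all genes were higher and 21.2% lower. GKO had 11 of these genes lower and 5 higher than naïve ESCs (median -0.091), beside 27.1% and 24.7% of all genes.

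The amino acid stress response, the set of genes driven by ATF4, had 17 of 36 lower (47.2%, against 24.3% of all genes) and 6 higher (16.7%, against 21.7%), with a median of -0.24. Chac1, which encodes a glutathione-degrading enzyme, was at 8.39 and 8.84 TPM in the naïve libraries and 3.16 and 2.74 TPM in DKO (log2 fold change -1.29, SE 0.11, adjusted p = 5.10e-05), with 13.2 and 11.6 TPM in AKO and 3.13 and 3.77 TPM in GKO. Nupr1, a stress-induced chromatin protein gene, was at 13.8 and 10.95 TPM in the naïve libraries and 4.35 and 4.53 TPM in DKO (-1.29). Among the members that rose were Ddit4, which encodes the mTORC1 inhibitor REDD1 and was at 8.54 and 6.78 TPM in the naïve libraries and 24.9 and 27.6 TPM in DKO (1.66), and Cbs, which encodes cystathionine β-synthase and was at 9.67 and 8.54 TPM in the naïve libraries and 24.1 and 25.7 TPM in DKO (1.36). The list median was 0.18 in AKO against naïve ESCs and -0.13 in GKO, where 13 genes were lower and 6 higher, beside 27.1% and 24.7% of all genes. Asns, the most abundant gene of the list, was at 514 and 503 TPM in the naïve libraries and 449 and 468 TPM in DKO and did not pass the test (-0.15). It was not called in 12 of 14 alternative settings and was called lower in the others. The letters TGATGNAA, the core of the CEBP-ATF element, were searched on both strands and were in 9 of 30 list windows (30.0%) and 2.48% of all, and 4 of the 9 genes fell and 0 rose, beside 17 and 6 of 36 in the whole list. The match is shown in capitals for the 3 called genes whose match lies far enough from the ends of the window. They were chosen after their values were seen and include Slc7a11, a cystine carrier gene that was under 0.3 TPM in all 4 libraries (-0.28), passed the filter only through the primed libraries and lost its call without naïve replicate 1. Without it, 3 of the genes with a match fell. Matches on the opposite strand appear as the reverse complement.
Nupr1, chr7:126625553-126625600, minus strand: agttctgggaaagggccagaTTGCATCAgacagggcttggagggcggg
Chac1, chr2:119351029-119351076, plus strand: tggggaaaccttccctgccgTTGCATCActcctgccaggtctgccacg
Slc7a11, chr3:50443633-50443680, minus strand: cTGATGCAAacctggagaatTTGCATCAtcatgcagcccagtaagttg

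Central carbon metabolism was mixed. For glycolysis and lactate, 10 of 31 tested genes were higher and 9 lower (median 0.10), beside 21.7% higher and 24.3% lower of all genes. Pfkm and Pfkl, which encode muscle and liver forms of phosphofructokinase, rose by 0.84 and 0.67, and Pdk3, which encodes a pyruvate dehydrogenase kinase and lies on chromosome X, fell by 0.71. For the pentose phosphate pathway and TCA cycle, 6 of 36 tested genes were higher and 16 lower (median -0.12). Glud1, which encodes glutamate dehydrogenase and lies on chromosome 14, was at 108 and 109 TPM in the naïve libraries and 245 and 228 TPM in DKO (log2 fold change 1.11, SE 0.056, adjusted p = 2.91e-06). The DKO libraries were above both naïve libraries. For glycogen metabolism, 3 of 20 tested genes were higher and 4 lower (median 0.051). Gaa, which encodes the lysosomal glucosidase that degrades glycogen, was at 20.2 and 18.8 TPM in the naïve libraries and 36.8 and 39.8 TPM in DKO (log2 fold change 0.94, SE 0.077, adjusted p = 3.45e-05), and Nhlrc1, which encodes malin, fell from 2.65 and 2.696 to 1.33 and 1.34 TPM (-0.65). Gaa was also higher in DKO than in GKO (0.78, adjusted p = 9.19e-05). For AMPK substrates, 3 of 20 tested genes were higher and 6 lower (median -0.028), with Hdac7 (1.08) and Foxo3 (0.54) up and Foxo1 (-0.41) down. For hypoxia targets, 5 of 24 tested genes were higher and 5 lower (median 0.011). Ldha, the most abundant of these, was at 1018 and 1022 TPM in the naïve libraries and 733 and 752 TPM in DKO (-0.46).

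The respiratory chain, the ribosomes and the proteasome serve energy supply and protein turnover. Of all genes, 24.3% were lower and 21.7% higher. For the nuclear genes of the respiratory chain, 5 of 82 tested genes were higher and 27 lower (median -0.12), and the median was -0.025 under quantile normalization. Atp5g3, which encodes a c subunit of ATP synthase, was at 759 and 710.3 TPM in the naïve libraries and 512 and 519 TPM in DKO (-0.51). Genes of the mitochondrial genome are absent from the table. For mitochondrial ribosomal proteins, 9 of 77 tested genes were higher and 33 lower (median -0.11), and 19 were lower without DKO replicate 1 and without naïve replicate 1. For cytosolic ribosomal proteins, 3 of 82 tested genes were higher and 16 lower (median -0.046). The cytosolic list had 7 higher without DKO replicate 1 and 13 under quantile normalization, and 7 lower without naïve replicate 1 and 9 with each library centred per chromosome. Its median changed sign under quantile normalization and without DKO replicate 1. For the proteasome, 10 of 46 tested genes were higher and 22 lower (median -0.18). Psma8, which encodes a testis-specific α subunit, was at 26.9 and 28.4 TPM in the naïve libraries and 11.5 and 11.1 TPM in DKO (log2 fold change -1.22, SE 0.073, adjusted p = 7.09e-06), and Psme1, which encodes an interferon-inducible activator subunit and lies on chromosome 14, rose by 0.65.

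The transcription factors of naïve pluripotency keep one another expressed. In the naïve list, 11 of 29 tested genes were higher and 2 lower (median 0.086), or 37.9% and 6.90% beside 21.7% and 24.3% of all genes, and 7 were higher without naïve replicate 2. Esrrb was at 186 and 174 TPM in the naïve libraries and 238 and 242 TPM in DKO (log2 fold change 0.42, SE 0.044, adjusted p = 0.000117), and Nanog at 441 and 429 TPM in the naïve libraries and 521 and 500.2 TPM in DKO (0.23, adjusted p = 0.0143). Dppa3, a gene of the early embryo and germ line, was at 1.42 and 1.20 TPM in the naïve libraries and 4.12 and 5.79 TPM in DKO (1.35). DKO libraries were above naïve libraries in all 3. Dppa5a, the most abundant gene of the list, was at 1222 and 1134 TPM in the naïve libraries and 1379 and 1529 TPM in DKO (0.30, adjusted p = 0.00951). Sall4 (0.61), Tet2 (0.55), Tbx3 (0.48) and Nr0b1 (0.37) also rose, and Klf4 did not pass the test (0.32, adjusted p = 0.0890), though it was called higher under quantile normalization, when only these 2 lines were fitted and without the primed libraries. With each library centred per chromosome, Nr0b1, on chromosome X, was at 0.66 and Esrrb, on chromosome 12, at 0.28. Nanog and Dppa3 lie in a bin of chromosome 6 whose median gene was 0.21 higher. Nanog lost its call in 2 of 14 alternative settings, Nr0b1 and Dppa5a each in 3 and Tbx3 in 1. Among formative and primed genes, 4 of 28 tested genes were higher and 10 lower (median -0.32). That median was -0.12 over genes with a mean of at least 5 TPM and -0.20 with each library centred per chromosome. Otx2, the formative transcription factor gene, was at 5.71 and 6.10 TPM in the naïve libraries and 2.39 and 2.98 TPM in DKO (log2 fold change -0.91, SE 0.093, adjusted p = 1.00e-04) on the raised chromosome 14. Sox4, which encodes another transcription factor of the list, was at 5.46 and 5.56 TPM in the naïve libraries and 2.06 and 2.02 TPM in DKO (-1.10). Both genes were lower in DKO than in naïve ESCs, AKO and GKO. Lefty2, the most abundant gene of the list, was at 238 and 225 TPM in the naïve libraries and 96.2 and 97.9 TPM in DKO, and did not pass the test (-1.24, adjusted p = 0.0958), but was called lower when only these 2 lines were fitted and without the primed libraries. In PJ1 the summed TPM of this list was 2139 and 1575, against 797 and 768 in naïve ESCs and 613 and 626 in DKO.

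Among markers of other cell types, single genes changed in each direction, beside 21.7% higher and 24.3% lower of all genes. Mesendoderm genes summed to 100.1 and 98.1 TPM in naïve ESCs and 79.9 and 80.7 TPM in DKO, and of 21 genes 12 were tested (1 higher, 1 lower, median -0.10). In the 2 PJ1 libraries, which enter the pooled spread, they summed to 88.6 and 14.4 TPM. The lower count was 5 when only these 2 lines were fitted and without the primed libraries, and 0 in each fit without 1 library and with the replicate block. The higher gene is Cdx2, which is also in the trophectoderm list. Cdx1 was the most abundant of the mesendoderm genes, at 29.6 and 29.0 TPM in the naïve libraries and 25.5 and 25.6 TPM in DKO. T was at 15.7 and 14.5 TPM in the naïve libraries and 4.94 and 4.88 TPM in DKO (-1.44, adjusted p = 0.0774). Its libraries did not overlap, as in 78.8% of all genes, although the test was not passed, and it was called lower in the first 2 of these settings. The same held for Eomes (-0.28, adjusted p = 0.614). Cer1 was listed at 0 in all 4 libraries, and Sox17 and Fgf5 were under 0.2 TPM in each. Primitive endoderm genes summed to 372 and 360.1 TPM in naïve ESCs and 385 and 409.7 TPM in DKO, with 3 of 11 tested genes higher and 4 lower (median -0.017). Apoe was the most abundant (146 and 136 TPM in the naïve libraries and 126 and 151 TPM in DKO), Hnf4a rose (0.67) and Col4a1 fell (-0.94). Trophectoderm genes summed to 106 and 108 TPM in naïve ESCs and 128 and 132 TPM in DKO, with 6 of 15 tested genes higher and 1 lower (median 0.22), the higher count being 3 in 5 of the alternative settings. Cdx2, a trophectoderm and posterior regulator gene, was at 2.57 and 2.66 TPM in the naïve libraries and 6.73 and 6.86 TPM in DKO (log2 fold change 1.11, SE 0.15, adjusted p = 0.000417), and Gata2 at 0.516 and 0.663 TPM in the naïve libraries and 3.19 and 4.76 TPM in DKO (1.63). Cdx2 lost its call with a pseudocount of 0.1. Cldn4 was the most abundant of the list, at 23.4 and 22.4 TPM in the naïve libraries and 27.6 and 30.6 TPM in DKO. GKO held Cdx2 and Gata2 at similar levels (6.62 and 7.27 and 4.67 and 4.39 TPM). Neural ectoderm genes had 4 of 11 tested genes higher and 0 lower (median 0.081), with sums of 68.6 and 70.3 TPM in naïve ESCs and 80.7 and 83.5 TPM in DKO and Tubb3 as the most abundant (59.0 and 60.6 TPM in the naïve libraries and 66.6 and 70.0 TPM in DKO). The higher count was 1 without DKO replicate 2 and without either naïve library and 2 in 4 other settings, and Tubb3 lost its call in 4 of 14. Fibroblast and feeder genes had 2 of 8 tested genes higher and 1 lower (median 0.063) and sums of 7.53 and 7.43 TPM in naïve ESCs and 6.03 and 5.79 TPM in DKO, the most abundant in naïve ESCs being Twist1 (3.16 and 3.52 TPM in the naïve libraries and 1.53 and 1.02 TPM in DKO). Genes of 2-cell-like cells had 1 of 3 tested genes higher and 2 lower (median -0.29). With no filter on low values, where more genes were tested, 9 were higher and 2 lower and the median was 0.11. Their sums were 88.9 and 93.3 TPM in naïve ESCs and 80.8 and 82.8 TPM in DKO. The most abundant was Eif1ad, on chromosome 19 (51.9 and 52.6 TPM in the naïve libraries and 35.6 and 38.7 TPM in DKO). It was also at 30.2 and 28.1 TPM in PJ1, so the sums need not reflect 2-cell-like cells. In bulk RNA, more cells of a type and more RNA per cell cannot be told apart.

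LIF, ERK, Wnt and Nodal signals act on the exit from naïve pluripotency. Counts of their lists stand beside 21.7% higher and 24.3% lower among all genes. For ERK feedback and targets, 2 of 24 tested genes were higher and 2 lower (median 0.017). The counts were 8 and 6 when only these 2 lines were fitted and 8 and 5 without the primed libraries. Spry2, a feedback inhibitor gene on chromosome 14, was at 24.2 and 22.3 TPM in the naïve libraries and 59.0 and 56.8 TPM in DKO (log2 fold change 1.28, SE 0.071, adjusted p = 4.70e-06) and Spry1 fell by 0.65, a call lost in each fit without 1 library. The LIF-STAT3 pathway had 1 of 18 tested genes higher and 5 lower (median -0.19). Pim3, which encodes a kinase induced by STAT3, was at 109 and 110.3 TPM in the naïve libraries and 53.9 and 57.3 TPM in DKO (log2 fold change -0.97, SE 0.045, adjusted p = 2.03e-06), and Socs1 fell by 0.76. For Nodal and BMP signalling, 6 of 27 tested genes were higher and 9 lower (median 0.0084). Id1, a direct BMP target gene, was at 19.8 and 22.8 TPM in the naïve libraries and 9.11 and 11.2 TPM in DKO (-1.002), with 13.3 and 11.9 TPM in AKO and 27.4 and 31.1 TPM in GKO. It was lower in DKO than in GKO (-1.44, adjusted p = 0.000297). Smad9 also fell (-1.14). For Wnt targets and pathway, 5 of 22 tested genes were higher and 7 lower (median -0.18). Apcdd1, a Wnt-induced inhibitor gene, was at 5.44 and 5.50 TPM in the naïve libraries and 13.7 and 15.2 TPM in DKO (log2 fold change 1.25, SE 0.17, adjusted p = 0.000463), and Tcf7l1, the repressor of the Wnt programme in ESCs, at 34.5 and 35.6 TPM in the naïve libraries and 54.9 and 55.7 TPM in DKO (0.64). Both were higher in DKO than in AKO and GKO. In the Myc and Max network, Mycl was up (0.86) and Mycn, its most abundant gene, was down (-0.23). Mycn was not called in 4 of 14 alternative settings and lies in the bin of chromosome 12 nearest the centromere, whose median was -0.24. Of the 13 tested genes of this network, 3 were higher and 6 lower (median -0.18). Without DKO replicate 1, and also without naïve replicate 1, 1 was higher and 3 lower.

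Among lists of cell structure, collagens and laminins had 8 of 18 tested genes higher and 4 lower (median 0.16), beside 21.7% higher and 24.3% lower of all genes. Nid1 and Hspg2, which encode the basement membrane proteins nidogen and perlecan, rose by 1.02 and 0.97. Adhesion and EMT genes had 6 of 21 tested genes higher and 6 lower (median 0.032). Vim was at 171 and 165 TPM in the naïve libraries and 229.7 and 259.7 TPM in DKO (0.54), and Cldn6, a claudin gene, at 1.02 and 0.874 TPM in the naïve libraries and 4.79 and 4.41 TPM in DKO (1.52). Imprinted genes had 7 of 31 tested genes higher and 10 lower (median 0.0019). Mest, expressed from the paternal allele, was at 189 and 194 TPM in the naïve libraries and 80.5 and 83.1 TPM in DKO (log2 fold change -1.22, SE 0.14, adjusted p = 0.000171), Cd81 at 96.8 and 96.9 TPM in the naïve libraries and 211 and 217 TPM in DKO (1.13), and Dio3 rose from 0.376 and 0.503 to 3.42 and 4.92 TPM. The first lay lower in DKO than in AKO and GKO, and the latter pair higher. Dio3 lies in a bin of chromosome 12 whose median against naïve ESCs was 0.22 in DKO, 0.18 in AKO and -0.44 in GKO. Ly6 surface protein genes had 3 of 6 tested genes higher and 1 lower (median 0.26), with Ly6a at 44.4 and 37.6 TPM in the naïve libraries and 75.8 and 80.8 TPM in DKO (0.92, adjusted p = 0.000499) and 11.5 and 9.91 TPM in GKO (DKO minus GKO 2.76). Ly6k was lower (-0.71), a call lost in 2 of 13 alternative settings. Interferon and innate immune genes had 5 of 17 tested genes higher and 3 lower (median 0.12), with Bst2 at 47.0 and 44.1 TPM in the naïve libraries and 17.7 and 18.9 TPM in DKO (-1.27).

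DNA methylation and demethylation genes had 4 of 19 tested genes higher and 5 lower (median 0.062), beside 21.7% higher and 24.3% lower of all genes. The de novo methyltransferase genes parted, Dnmt3b at 27.5 and 28.3 TPM in the naïve libraries and 41.0 and 41.3 TPM in DKO (log2 fold change 0.55, SE 0.063, adjusted p = 0.000191) and Dnmt3a at 14.8 and 16.3 TPM in the naïve libraries and 9.40 and 9.27 TPM in DKO (-0.68), and Tdg, which encodes the glycosylase that removes oxidized methylcytosine, fell by 0.86. All 3 differed from AKO and GKO in the same direction as from naïve ESCs. Dnmt3a lies in the bin of chromosome 12 nearest the centromere, whose median against naïve ESCs was -0.24 in DKO, 0.11 in AKO and -0.30 in GKO. Polycomb genes had 7 of 29 tested genes higher and 11 lower (median -0.10), where Pcgf6, which encodes a subunit of the Polycomb complex that silences germline genes, fell by 0.55 on chromosome 19 (-0.27 with each library centred per chromosome). The polycomb median changed sign when each library was centred per chromosome, and the higher count was 2 to 4 in the fits without 1 library. Cell cycle genes had 8 of 35 tested genes higher and 8 lower (median -0.069), with Ccne1, the cyclin E1 gene, at 123 and 127 TPM in the naïve libraries and 86.1 and 82.9 TPM in DKO (-0.56) and Rb1, on chromosome 14, rising from 0.530 and 0.509 to 2.09 and 1.93 TPM. Autophagy and lysosome genes had 12 of 49 tested genes higher and 12 lower (median -0.052). Hexa, which encodes a lysosomal hexosaminidase, was at 7.46 and 7.75 TPM in the naïve libraries and 22.3 and 23.0 TPM in DKO (log2 fold change 1.46, SE 0.13, adjusted p = 6.00e-05), and Gabarapl1, which encodes an autophagosome protein, fell by 0.88. The mTORC1 pathway had 10 of 38 tested genes higher and 8 lower (median -0.023), with Rragb, which encodes a Rag GTPase and lies on chromosome X, at 12.7 and 12.6 TPM in the naïve libraries and 5.69 and 4.89 TPM in DKO (-1.12) and Ddit4l, an inhibitor gene of the pathway, up by 1.58.

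**Figure D3:**
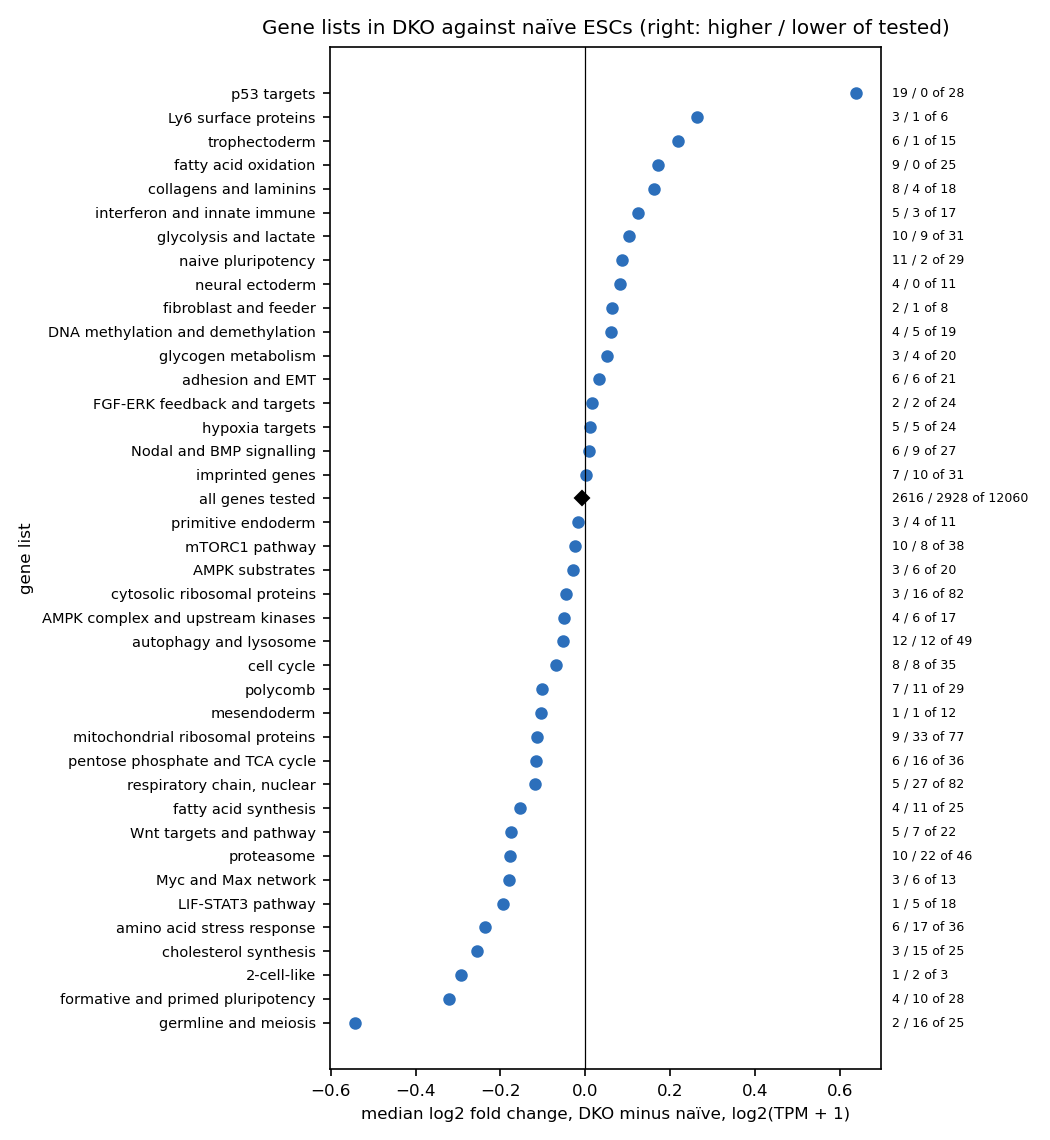
Median log2 fold change of DKO minus naïve ESCs on the log2(TPM + 1) scale (x axis) for each gene list and for all genes tested (y axis, black diamond), with the numbers of genes called higher and lower of those tested at the right. The p53 targets have the highest median, 0.64, and the germline and meiosis genes the lowest, -0.54, of the lists drawn, and Y-linked genes are left out.

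Some genes set DKO apart from each of the other lines in naïve medium. Against AKO, 5587 genes were called (46.3%), 2702 higher in DKO (22.4%) and 2885 lower (23.9%). Against GKO, 5252 were called (43.5%), 2698 higher and 2554 lower. Called in the same direction against naïve ESCs, AKO and GKO were 1938 genes (16.1%), 966 higher (8.01%) and 972 lower (8.06%). The 3 comparisons share the DKO libraries, so a deviation of these libraries enters each. Without DKO replicate 2 the count was 1234. Ranked by the smallest of the 3 changes, the largest rises beside Dok1, Rtkn and Plk2 were in Sox15 and Ckb. Sox15, a SOX factor gene of ESCs, was at 2.78 and 3.32 TPM in the naïve libraries and 9.08 and 11.3 TPM in DKO, with 2.50 and 3.07 TPM in AKO and 2.24 and 2.81 TPM in GKO (1.46, 1.56 and 1.67 against naïve ESCs, AKO and GKO). Ckb, which encodes the brain-type creatine kinase, was at 187 and 174 TPM in the naïve libraries and 456 and 539 TPM in DKO, with 185 and 178 TPM in AKO and 142 and 151 TPM in GKO (1.45, 1.45 and 1.75). Ckb lies in the most distal bin of chromosome 12, whose median against naïve ESCs was 0.15 in DKO, 0.11 in AKO and -0.46 in GKO. The largest falls, beside Prkaa1, were in 4930502E18Rik, Evc2, Ggt1 and Evc. 4930502E18Rik, an uncharacterized gene of chromosome X, was at 11.9 and 11.7 TPM in the naïve libraries and 2.40 and 2.18 TPM in DKO, with 12.7 and 12.6 TPM in AKO and 22.0 and 20.3 TPM in GKO (-1.96, -2.05 and -2.76). Evc and Evc2, neighbours on chromosome 5 whose products form a complex of the primary cilium, fell together. Evc went from 11.2 and 13.2 to 2.87 and 3.39 TPM (-1.67) and Evc2 from 9.84 and 9.79 to 2.91 and 3.19 TPM (-1.42), and their spans are 1.5 kb apart. Ggt1, which encodes the glutathione-cleaving γ-glutamyltransferase, was at 8.82 and 7.71 TPM in the naïve libraries and 2.80 and 1.72 TPM in DKO (-1.53), with 7.18 and 6.47 TPM in AKO and 11.1 and 11.01 TPM in GKO.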

How the data were processed

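The authors deposited 1 table of TPM per library, and TPM is the only unit used. Per the submitters' notes, reads were trimmed with Trim Galore 0.6.6 and aligned and quantified with STAR 2.7.9a and RSEM 1.3.3 before deposit. The tables hold protein-coding genes alone and 0 further columns per library. All 10 libraries entered 1 fit of limma 3.58.1 (R 4.3.3) with a mean for each line, an intensity trend and Benjamini-Hochberg adjustment over all genes tested, and the code was tested on simulated data. Named genes are the edited genes, the AMPK subunits and the markers measured in the study, the 10 largest rises and falls, up to 4 called members and the most abundant member of each list, the 5 largest rises and falls of genes apart from the other 3 lines, and the 2 largest changes on each of the 2 chromosomes with the largest shifts, without naming all of them. The members and lists were chosen with earlier results of these data known. Gene positions are from GENCODE vM39 (GRCm39) and promoter sequence from RefSeq (GRCm38.p6). Some items withheld for evaluation are not reported here.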

Additional observations from a re-analysis of the deposited data

How the results depend on the processing

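The fits without 1 library of a line assume that the lone library left varies like the other lines. In these fits the genes called between DKO and naïve ESCs numbered 3983 to 4293, those that also changed by 1 or more on the log2 scale 358 to 381, those called against AKO 4235 to 5167 and against GKO 3614 to 4788, and those apart from all 3 lines 1234 to 1519. Under the other settings the first count ranged from 4148, over genes with a mean of at least 5 TPM, to 6614, without the primed libraries. The count with changes of 1 or more was 862 with a pseudocount of 0.1, which enlarges the changes of low genes, and 187 over genes with a mean of at least 5 TPM, where fewer genes were tested. No gene called both in the main fit and in another setting differed in direction from the main fit, save 18 when each library was centred per chromosome, which sets chromosome medians to about 0 by construction.

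Of the 138 genes named and tested, 125 were called, and 111 of these kept their call and direction in every setting in which they were tested. Of genes not called, Pou5f1 turned to 0.13 and Apoe to 0.071 under quantile normalization, and leaving out 1 library gave -0.090 to 0.021 for Pou5f1 and -0.16 to 0.092 for Apoe. The 2-cell-like median turned to 0.11 with no filter on low values, where more genes were tested, and the polycomb median to 0.037 with each library centred per chromosome. Medians nearer to 0 in the main fit also changed sign in some settings, namely those of imprinted genes, Nodal and BMP signalling, cell cycle, mTORC1, adhesion and EMT, primitive endoderm, cytosolic ribosomal proteins, ERK feedback and hypoxia. With no filter on low values the medians of chromosomes 12, 14, 15, 19 and X were 0.055, 0.15, -0.036, -0.13 and -0.10. In that setting the medians of collagens and laminins, Ly6 and interferon genes were 0.029, 0.030 and 0.011, and that of trophectoderm genes 0.070. Over genes with a mean of at least 5 TPM those of collagens and laminins and of Ly6 genes were 0.39 and 0.47. Counts of genes called higher or lower, and medians, moved by over 1.5 times in some settings for other lists too. The trophectoderm lower count was 3 when only the DKO and naïve libraries were fitted and without the primed libraries. The glycolysis median was 0.056 without naïve replicate 1, 0.057 without naïve replicate 2 and 0.14 with a pseudocount of 0.1. The median of mitochondrial ribosomal proteins ranged from -0.18, without DKO replicate 2, to -0.046. The cause was not tested.

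Libraries of naïve ESCs and DKO share only a replicate number, and their replicate differences had a correlation of -0.116. With the number as a replicate block the counts were 5382, 358 with changes of 1 or more, 5409 against AKO, 5034 against GKO and 1832 apart from all 3 lines, and no named gene gained or lost its call. A crossed pairing of the libraries of these 2 lines as a block, chosen after seeing the data, gave 6599 and 361 genes. TPM holds no counts, so what depth limits was not tested.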
